A study of Caenorhabditis elegans with 4 samples.

Results

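The genes described here are called endocytosis genes, since most act in the recovery of synaptic vesicles after transmitter release. They include *sng-1*, which encodes a membrane protein of the vesicles. They are 10 genes chosen by name, *unc-11*, *unc-26*, *unc-57*, *unc-41*, *dyn-1*, *itsn-1*, *ehs-1*, *sng-1*, *chc-1* and *dpy-23*, out of 42518 gene loci in each table of deposited values. All 10 were found once in each table. No measured value was used to choose them, although earlier results of these data were known at the time. Values were measured in wild-type cells of strain CZ631 that express *Pacr-2*::*gfp*. The strain carries the integrated reporter *juIs14* and has no mutation in *acr-2* among its listed alleles. Young adults were harvested 72 hours after plating as synchronized L1 larvae, dissociated, and sorted for GFP, and RNA from the sorted cells was sequenced as 2 libraries (n = 2). The study also has 2 *acr-2(gf)* libraries from strain CZ5808, which carries the same reporter with the gain-of-function allele *n2420*, and these were not analysed here. The reporter marks the VA, VB, DA and DB motoneurons of the ventral cord and several unidentified neurons of the head and tail, so the sorted cells are a mixture of neurons.

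At a synapse, vesicle membrane added to the plasma membrane during release is taken back by endocytosis. Adaptor proteins collect vesicle proteins and recruit clathrin, scaffold proteins hold the forming site together, proteins with curved surfaces shape the neck, dynamin cuts it, and a lipid phosphatase helps to shed the coat. In *C*. *elegans*, many of these genes were found through mutants with uncoordinated (Unc) movement, because motoneurons without them run short of vesicles or misplace vesicle proteins.

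The libraries are called library 1 and library 2, and the numbers serve only as names. Levels are in FPKM, a measure of reads set against transcript length and the size of the library, as deposited, with the 95% interval that Cufflinks gives for each library. FPKM is set per length, so levels of different genes are set side by side, but levels still moved with length. A locus was called expressed where it had over 10 FPKM in both libraries, the limit used in the study, and 6885 of the 42518 loci (16.2%) passed. The paper reports a far smaller number of transcripts at this limit, and the difference was not resolved here. Medians, shares and percentiles of expressed loci refer to the 6885. All 10 endocytosis genes passed, and they also passed on the Cufflinks lower bound. Their median level was 133 FPKM over both libraries, with 116 FPKM in library 1 and 150 FPKM in library 2, beside a median of 45.6 FPKM over the expressed loci. With a single condition and 2 libraries there is no test between groups, and 2 values set against 2 cannot give an exact permutation p below 0.333 (two-sided), so levels are described without a test. The median was 107 FPKM for expressed loci with a longest annotated transcript up to 500 bp. It was 34.9 FPKM for those from 2001 to 3000 bp. The part of length in differences of level between genes was not tested.

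The sorted material held the transcripts that define cholinergic neurons and also those of other tissues. From the overlap of its expressed genes with published lists, the paper proposes little contamination by non-neuronal tissue, and it reports few GABAergic transcripts. Levels of named marker genes, as given here, are a different measure. *acr-2* itself had 58.3 FPKM in library 1 and 53.1 FPKM in library 2. All 8 pan-neuronal and all 4 cholinergic marker genes passed the limit, as did 4 of 6 GABAergic, 6 of 7 body-wall muscle, 4 of 6 intestinal, 7 of 7 germline, 3 of 5 hypodermal and 0 of 2 coelomocyte markers, and no marker was listed at 0. The summed FPKM of a list was 8315 and 7694 for the pan-neuronal markers in libraries 1 and 2, 885 and 1191 for the cholinergic, 291 and 700 for the GABAergic, 6712 and 6609 for the muscle, 3148 and 1701 for the intestinal, 1067 and 986 for the germline, 7092 and 8319 for the hypodermal, and 7.94 and 17.7 for the coelomocyte list. The lists differ in size and few genes made up most of some sums, so the sums do not rank the tissues. In library 1, *col-140* and *col-19* had 4857 and 2214 FPKM of the hypodermal sum, and *rol-6*, *dpy-13* and *elt-3* had 1.26, 7.43 and 11.8 FPKM. In the same library *pat-10* had 3693 FPKM of the muscle sum and *sbt-1* had 4963 FPKM of the pan-neuronal sum. Cufflinks marked its estimate as failed for 1 intestinal marker, *cpr-6*, in library 2. Clathrin, dynamin and AP-2 are used by most cells of the animal, and the part of their FPKM that comes from other cells was not tested. In bulk samples of this kind, fewer cells of a type and less RNA per cell cannot be told apart.

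*chc-1* (WBGene00011867, chromosome III, 10203781 to 10209315 in the ce10 loci of the deposited tables) encodes the heavy chain of clathrin, the protein that forms the cage around the budding vesicle. It had 65.5 FPKM in library 1 (interval 64.2 to 66.7) and 87.5 FPKM in library 2 (interval 86.2 to 88.8), a mean of 76.5 ± 15.6 FPKM (SD, n = 2). This was above the mean level of 64.7% of the expressed loci. *clic-1*, which encodes the clathrin light chain, had 202 FPKM and 266 FPKM. The light chain gene was therefore the higher of the pair in both libraries, and the heavy chain stood at 0.324 of it in library 1 and at 0.329 in library 2. Both genes were higher in library 2, and their ratio to each other was nearly the same. The longest transcript in the WBcel235 annotation has 5395 bp for *chc-1* and 1019 bp for *clic-1*. The ce10 locus of *clic-1*, 7733917 to 7734866 on chromosome V, is shorter than 1019 bp, so Cufflinks divided by another length. The part of length in the difference between *chc-1* and *clic-1* was not tested.

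*dpy-23* (WBGene00001082, chromosome X, 4389351 to 4393141) encodes the medium, or mu, subunit of the adaptor complex AP-2, which links cargo proteins and membrane lipids to clathrin. Its level was 145 FPKM in library 1 (interval 138 to 152) and 170 FPKM in library 2 (interval 162 to 178), a mean of 158 ± 17.8 FPKM (SD, n = 2). The genes of the other AP-2 subunits lay on both sides of it. The small subunit gene *aps-2* had 330 ± 12.99 FPKM, the alpha subunit gene *apa-2* had 96.3 ± 32.6 FPKM, and *apb-1*, which encodes the beta subunit, had 70.5 ± 30.4 FPKM (SD, n = 2 for each). The order *aps-2*, *dpy-23*, *apa-2*, *apb-1* was the same in both libraries, from 339 to 49.0 FPKM in library 1 and from 320 to 92.0 FPKM in library 2. The large subunits were thus lower than the medium and small subunits by transcript level, and the distance between them was smaller in library 2. Their longest annotated transcripts are also longer, 3246 bp for *apa-2* and 3115 bp for *apb-1*. Those of *dpy-23* and *aps-2* have 1980 bp and 564 bp, and the part of length in this order was not tested.

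*unc-11* and *unc-41* encode adaptors that work with AP-2 at the synapse. UNC-11 is the homolog of AP180, which recovers the vesicle SNARE protein synaptobrevin, and UNC-41 is the homolog of stonin, which recovers synaptotagmin. *unc-11* (WBGene00006751, chromosome I, 3799174 to 3805707) had 244 FPKM in library 1 (interval 235.4 to 253) and 336 FPKM in library 2 (interval 325 to 347), a mean of 290 ± 65.0 FPKM (SD, n = 2). *unc-41* (WBGene00006777, chromosome V, 9966657 to 9976202) had 20.0 FPKM in library 1 (interval 19.04 to 20.97) and 80.1 FPKM in library 2 (interval 77.7 to 82.5), a mean of 50.1 ± 42.5 FPKM (SD, n = 2). The values of *unc-41* differed by a higher fold than those of any other of the 10 genes, with the highest SD relative to its mean, and its level exceeded that of 22.3% of the expressed loci in library 1 and 65.8% in library 2. *unc-11* was the higher of the adaptor pair in both libraries, 12.2-fold in library 1 and 4.19-fold in library 2. *fcho-1*, whose product acts early at clathrin-coated pits, had 23.02 FPKM in library 1 and 19.1 FPKM in library 2, so *fcho-1* was slightly above *unc-41* in library 1 and well below it in library 2.

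**Figure D1:**
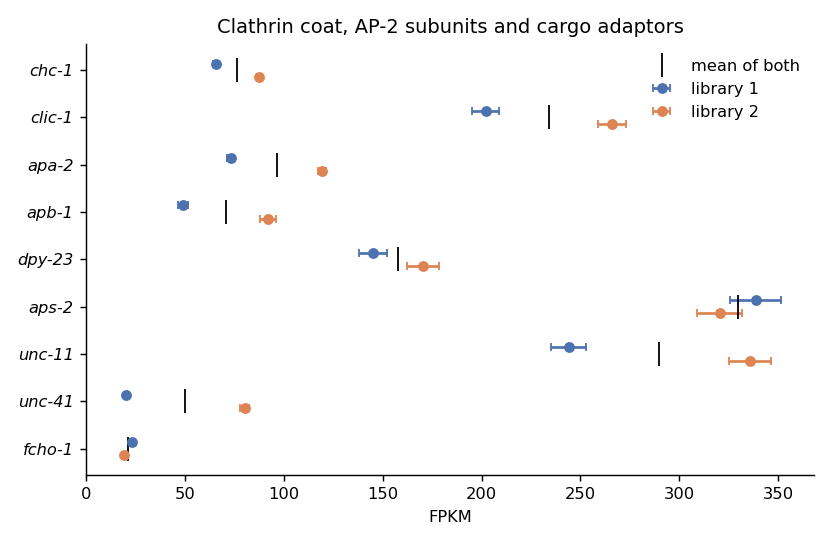
Level of genes for the clathrin coat, AP-2 subunits and cargo adaptors, in FPKM on a linear axis from 0, in library 1 (blue) and library 2 (orange), with bars for the Cufflinks 95% interval and a black tick for the mean of both. Small-subunit gene *aps-2* and adaptor gene *unc-11* reached over 300 FPKM in at least 1 library, and *unc-41* had 20.0 FPKM in library 1 and 80.1 FPKM in library 2.

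The scaffold genes *itsn-1* and *ehs-1* encode intersectin and the homolog of Eps15, EH-domain proteins that bind each other at endocytic sites. *itsn-1* (WBGene00006405, chromosome IV, 17119648 to 17125899) had 86.2 FPKM in library 1 (interval 83.0 to 89.3) and 129 FPKM in library 2 (interval 124 to 134), a mean of 108 ± 30.2 FPKM (SD, n = 2). *ehs-1* (WBGene00001224, chromosome II, 5820699 to 5823577) had 40.0 FPKM in library 1 (interval 37.9 to 42.2) and 80.9 FPKM in library 2 (interval 77.0 to 84.7), a mean of 60.5 ± 28.9 FPKM (SD, n = 2). Both scaffold genes were higher in library 2, and *itsn-1* stayed above *ehs-1*, by 2.15-fold in library 1 and 1.59-fold in library 2. *ehs-1* overlaps *tbc-2* on the opposite strand by 7 bp in the WBcel235 annotation, and *tbc-2* had 8.53 and 11.5 FPKM.

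*unc-57* encodes endophilin A, a protein that binds curved membrane and brings synaptojanin to the vesicle neck. *unc-57* (WBGene00006791, chromosome I, 4675140 to 4678853) was the highest of the 10 genes, at 371 FPKM in library 1 (interval 349 to 393) and 368 FPKM in library 2 (interval 352 to 384), a mean of 369 ± 2.08 FPKM (SD, n = 2). Its level exceeded that of 89.7% of the expressed loci, and its 2 values differed least of the 10. *unc-26* (WBGene00006763, chromosome IV, 13261845 to 13272487), which encodes synaptojanin, the phosphoinositide phosphatase that works with endophilin in uncoating, was the lowest by mean. It had 25.5 FPKM in library 1 (interval 24.1 to 26.9) and 43.5 FPKM in library 2 (interval 41.4 to 45.6), a mean of 34.5 ± 12.7 FPKM (SD, n = 2). This functional pair thus held the top and the bottom of the list, with *unc-57* 14.5-fold above *unc-26* in library 1 and 8.46-fold above it in library 2. *unc-26* overlaps JC8.16 on the opposite strand by 66 bp in WBcel235, and that gene had 1.23 FPKM in library 1 and 0.0305 FPKM in library 2.

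*dyn-1* (WBGene00001130, chromosome X, 15568853 to 15572881) encodes dynamin, the GTPase that severs the vesicle neck. It had 170 FPKM in library 1 (interval 164 to 176) and 195 FPKM in library 2 (interval 189 to 201), a mean of 183 ± 17.5 FPKM (SD, n = 2). Dynamin transcripts were 2.60-fold above those of the clathrin heavy chain in library 1 and 2.23-fold above them in library 2.

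*sng-1* (WBGene00004912, chromosome X, 7327562 to 7329384) differs in kind from the other genes, since it encodes synaptogyrin, a membrane protein that is itself carried in synaptic vesicles. Its level was 300 FPKM in library 1 (299.8, interval 292 to 308) and 321 FPKM in library 2 (interval 313 to 328), a mean of 310 ± 14.7 FPKM (SD, n = 2). *snb-1*, which encodes synaptobrevin, the vesicle SNARE, had 2675 and 2806 FPKM, so *sng-1* stood at 0.112 of it in library 1 and 0.114 in library 2. Among 6 other genes for vesicle membrane proteins, *sng-1* was below *snb-1*, the small GTPase gene *rab-3* and the vesicular acetylcholine transporter gene *unc-17* in both libraries. It was above *scm-1* and *sph-1*, the SCAMP and synaptophysin genes, in both, with means of 106 ± 17.7 FPKM and 12.95 ± 4.76 FPKM for these genes (SD, n = 2 for each). The synaptotagmin gene *snt-1* was below *sng-1* in library 1, at 218 FPKM, and above it in library 2, at 463 FPKM. *sph-1* was the 1 gene of those 6 that was under the limit in a library, at 16.3 FPKM in library 1 and 9.58 FPKM in library 2.

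**Figure D2:**
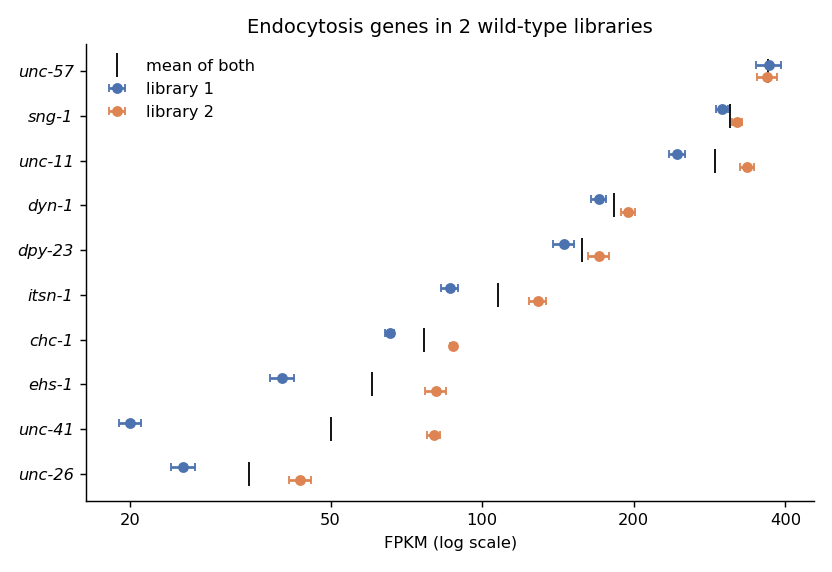
Level of each of the 10 endocytosis genes in library 1 (blue) and library 2 (orange), in FPKM on a log axis, ordered by the mean of both (black tick), with bars for the Cufflinks 95% interval. *unc-57* and *sng-1* had nearly the same level in both libraries, and *unc-41* differed by the highest fold, 20.0 against 80.1 FPKM.

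By mean level the order was *unc-57*, *sng-1*, *unc-11*, *dyn-1*, *dpy-23*, *itsn-1*, *chc-1*, *ehs-1*, *unc-41* and *unc-26*. Of the 9 pairs of neighbours in this order, 6 had overlapping values over the 2 libraries, and 3 did not. The neighbours set apart were *unc-57* above *sng-1*, *unc-11* above *dyn-1*, and *dpy-23* above *itsn-1*. Over all 45 pairs of the 10 genes, 43 were in the same order in both libraries, and the values of 37 pairs did not overlap. The pairs that changed places were *sng-1* with *unc-11* and *unc-41* with *unc-26*. At the gap between *dpy-23* and *itsn-1*, 5 genes from 145 FPKM upward in each library stood above 5 genes at up to 129 FPKM in each. This gap was picked after the values were seen and was not the widest. By means it was 1.47-fold, and that of *unc-11* over *dyn-1* was 1.59-fold. Adaptor genes lay on both sides of each of these gaps. The highest gene exceeded the lowest by 18.5-fold in library 1 and by 8.46-fold in library 2, so the range was narrower in library 2.

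Replicate spread was uneven across the list. In 9 of the 10 genes the Cufflinks intervals of the libraries did not overlap, always with library 2 higher, and in *unc-57* they did overlap. Over 6827 expressed loci with an interval above 0 in both libraries, 76.0% had intervals that did not overlap, and 45.8% were higher in library 2 in this way. These intervals do not include the variation between cell preparations, and the share over all loci shows how often they are exceeded. The log2 ratio of library 2 over library 1, on FPKM plus a pseudocount of 1, had a median of 0.12 over all expressed loci, and ratios were centred on it. After both libraries were brought to the same median ratio, the intervals of 6 of the 10 genes were apart with library 2 higher, namely *unc-11*, *itsn-1*, *chc-1*, *ehs-1*, *unc-41* and *unc-26*. None was apart with library 1 higher, beside 38.0% and 36.9% of expressed loci in these directions.

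The centred log2 ratios ran from -0.13 for *unc-57* to 1.83 for *unc-41*, with a median of 0.32 over the 10 genes. The ratio was above 0 in 8 of the 10, *sng-1* at -0.02 and *unc-57* being the exceptions, beside 50% of all expressed loci. With the 8 pan-neuronal genes as the centre in place of all expressed loci, the median was -0.012 and *dyn-1*, *dpy-23* and *chc-1* were below 0, while with no centring or an upper-quartile centring *sng-1* was above 0. The pan-neuronal list had a median centred ratio of 0.33, close to that of the endocytosis genes. Its widest gap was that of *unc-104*, the gene for the kinesin that carries synaptic vesicle precursors, with 26.5 FPKM in library 1 and 109 FPKM in library 2, a gene named after its values were seen. *unc-41* was the highest of the 10 genes in this ratio, and over the other centrings its value ran from 1.501 to 2.37. Its FPKM was 4.00-fold higher in library 2, its centred ratio lay above 99.4% of the expressed loci, and 38 of the 6885 had a ratio at least as high. *ehs-1* came next, 2.02-fold higher in library 2 and above 92.8% of the loci, followed by *unc-26*, 1.71-fold higher and above 86.3%. The GABAergic marker genes were also higher in library 2, in 6 of 6 by their intervals and with a summed FPKM of 291 and 700. Most of these sums was *unc-25*, at 226 and 536 FPKM, and *snf-11* differed least by fold, at 17.1 and 21.4 FPKM. In contrast, 4 of 6 intestinal markers were lower by their intervals, with a summed FPKM of 3148 and 1701. Of the others, *elt-2* was higher in library 2, at 1.68 and 5.36 FPKM, and *cpr-6* had no usable interval in library 2. The hypodermal and coelomocyte lists were higher in library 2 as well, for 5 of 5 and 2 of 2 genes. Of the muscle markers 3 were higher and 4 lower in library 2, and of the germline markers 2 were higher and 2 lower. These counts use unscaled intervals, beside 76.0% of expressed loci apart in either direction and 45.8% with library 2 higher. Only 4 of 6 GABAergic, 3 of 5 hypodermal and 0 of 2 coelomocyte markers passed the expression limit. The part of these cell types in the ratios of the endocytosis genes was not tested.

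Transcript length also moved with the ratio. Across 6064 expressed loci with a length in the WBcel235 annotation, Spearman's rho of the centred ratio and the longest annotated transcript was 0.25, as a description across genes of the same 2 libraries. These lengths can differ from those by which Cufflinks divided, which were not available here. The median centred ratio was -0.39 for the 710 loci with transcripts up to 500 bp and 0.29 for the 83 loci from 5001 to 7000 bp. The endocytosis genes ran from 1026 bp for *sng-1* to 5395 bp for both *chc-1* and *unc-41*. *chc-1*, at 0.29, lay at the median of loci of its length, and *sng-1*, *dyn-1*, *dpy-23*, *unc-57*, *unc-11* and *itsn-1* were inside the middle 50% of theirs, as read from the 25th and 75th percentiles. *unc-26* at 0.63 and *ehs-1* at 0.88 were above the 75th percentiles of 0.54 and 0.46 for their length, and *ehs-1* was also above the 90th, 0.76. *unc-41* at 1.83 was above the 95th percentile of 1.28 for its length, although its longest transcript has the same length as that of *chc-1*. The part of transcript length in these ratios was not tested further.

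**Figure D3:**
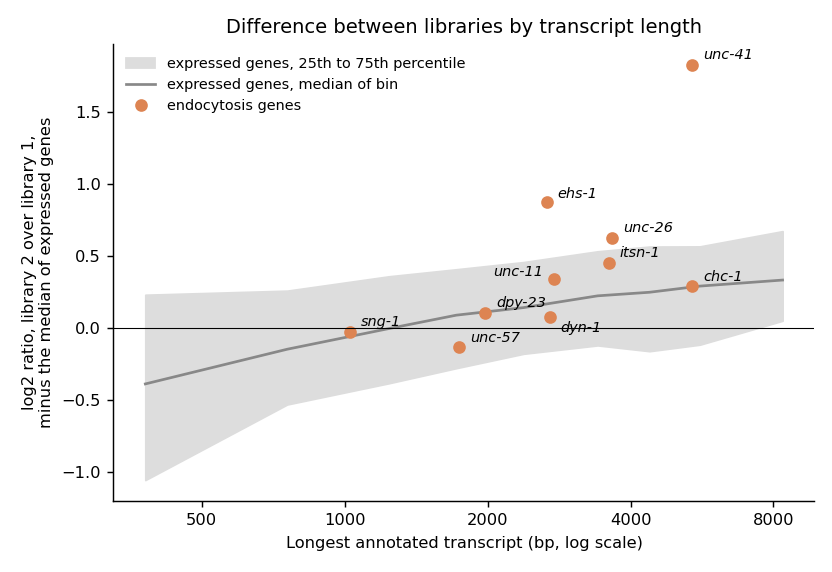
Centred log2 ratio of library 2 over library 1 (FPKM plus 1) against the longest annotated transcript in bp (log axis) for the 10 endocytosis genes (orange), with the median (line) and the 25th to 75th percentile (grey) of expressed loci in bins of length. *unc-41*, *ehs-1* and *unc-26* lay above the grey band, and *unc-41* and *chc-1*, both at 5395 bp, had ratios of 1.83 and 0.29.

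Other features of *unc-41* were checked in the tables and the annotation. The deposited tables give it 3 start-site groups, as for *itsn-1*, against 2 for *unc-11* and *unc-57* and 1 for each of the remaining genes. WBcel235 holds 3 transcripts of *unc-41*, the longest with 12 exons, and a small nucleolar RNA gene, C27H6.5, that overlaps it by 68 bp on the same strand. C27H6.5 and the non-coding gene C27H6.10, which overlaps *unc-41* by 3 bp on the other strand, were both listed at 0 in both libraries. The share of each isoform of *unc-41* was not analysed here.

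Ratios between partners within a library were steadier for some pairs than for others. The log2 ratio of *chc-1* over *clic-1* was -1.60 ± 0.01 and that of *sng-1* over *snb-1* was -3.14 ± 0.02 (SD, n = 2 for each, on FPKM plus 1). *dyn-1* over *chc-1* gave 1.26 ± 0.15, *dpy-23* over *aps-2* gave -1.06 ± 0.22, *itsn-1* over *ehs-1* gave 0.88 ± 0.30 and *dpy-23* over *apa-2* gave 0.75 ± 0.33. The widest were *unc-57* over *unc-26* at 3.43 ± 0.54 and *unc-11* over *unc-41* at 2.80 ± 1.05. All 8 pairs kept their direction in both libraries, and the size of the ratio differed between libraries by pair, most for *unc-11* over *unc-41* and least for *chc-1* over *clic-1*.

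**Figure D4:**
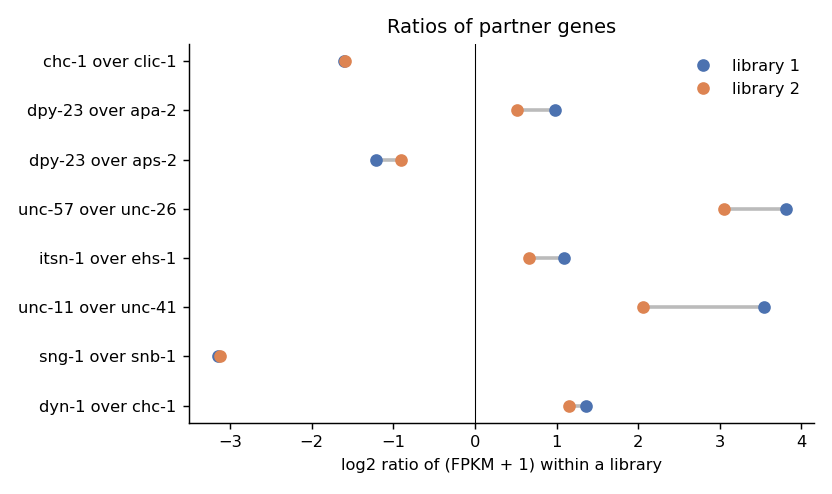
Log2 ratio of FPKM plus 1 for 8 pairs of partner genes within library 1 (blue) and library 2 (orange), joined by a grey line. *chc-1* over *clic-1* and *sng-1* over *snb-1* were nearly equal in both libraries, and *unc-11* over *unc-41* was 3.54 in library 1 and 2.05 in library 2.

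Other genes of membrane bending, scission and uncoating gave a mixed picture, and 6 of 7 passed the limit. *hsp-1*, which encodes the Hsc70 chaperone that strips clathrin from vesicles, was the highest at 1610 ± 347 FPKM (SD, n = 2), though this chaperone has many other uses in all cells. *dnj-25*, the gene for auxilin, the partner that directs Hsc70 to clathrin, had 51.0 ± 7.58 FPKM, and the kinase gene *ppk-1*, whose product makes the lipid that synaptojanin breaks down, had 84.7 ± 22.8 FPKM (SD, n = 2 for each). The level of *ppk-1* was above that of *unc-26* in both libraries, 68.6 and 101 FPKM against 25.5 and 43.5 FPKM. *erp-1*, which encodes endophilin B, had 225 and 356 FPKM, close to *unc-57* in library 2 and below it in library 1. *amph-1*, the amphiphysin gene, had 18.2 and 42.3 FPKM, and *sdpn-1*, the syndapin gene, had 6.05 and 10.9 FPKM and missed the limit in library 1. *lst-4*, a sorting nexin gene, differed in the other direction, with 95.2 FPKM in library 1 and 44.4 FPKM in library 2.

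Against related lists of genes, the median of the 10 endocytosis genes was intermediate. The lists of other coat and AP-2 genes and of other bending, scission and uncoating genes also belong to endocytosis. The 10 genes also include *sng-1*, which encodes a vesicle membrane protein. The rank therefore depends on how the lists were drawn up. The median of their means, 133 FPKM, was below the 259 FPKM of 8 genes of vesicle fusion and the 412 FPKM of 6 genes for vesicle membrane proteins, and above the 96.3 FPKM of 5 other coat and AP-2 genes, the 69.8 FPKM of 7 other bending, scission and uncoating genes and the 38.7 FPKM of 10 endosome and recycling genes. The fusion genes had a wider range, from 22.0 ± 13.9 FPKM for *unc-10*, the RIM gene, to 2633 ± 337 FPKM for the complexin gene *cpx-1* (SD, n = 2 for each), and none of the 10 endocytosis genes reached the level of *cpx-1*, *ric-4* or *unc-64* in either library. All 8 fusion genes had a centred ratio above 0, with a median of 0.51, beside 0.32 for the endocytosis genes. *tom-1*, the tomosyn gene, was 3.61-fold higher in library 2 and *unc-13*, which is needed for vesicle priming, 2.67-fold higher. They had the widest gaps of the fusion genes and were named after their values were seen. Their longest transcripts have 4187 and 6468 bp, and *cpx-1*, at 804 bp, was 1.20-fold higher. No test of a difference between these lists was made, because the lists were chosen by name and the libraries are 2.

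**Figure D5:**
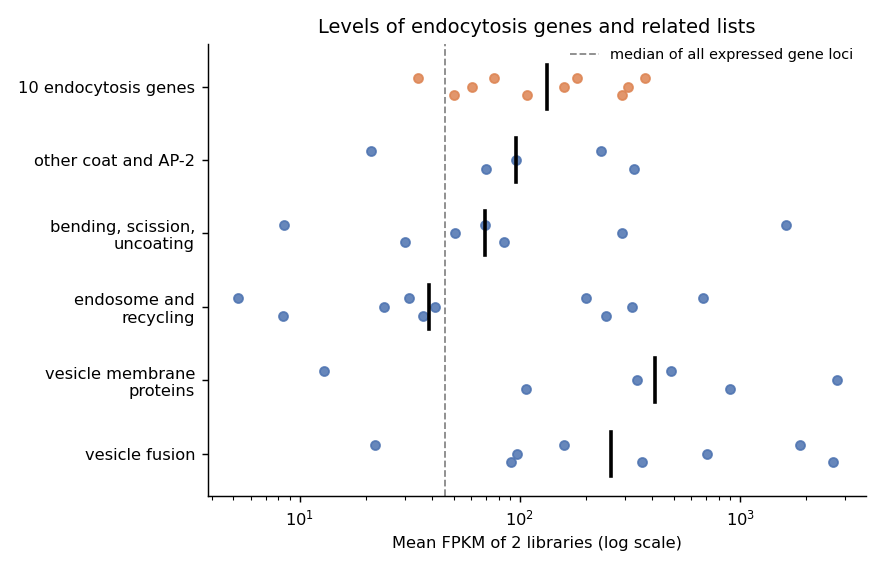
Mean FPKM of both libraries (log axis) for each of the 10 endocytosis genes (orange) and for the genes of 5 related lists (blue), with a black bar for the median of each list and a dashed line for the median of all expressed loci, 45.6 FPKM. The endocytosis genes ran from 34.5 to 369 FPKM, within the range of the vesicle fusion genes.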

How the data were processed

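RNA was from GFP-positive cells of strain CZ631, with 2 wild-type libraries. TruSeq libraries were read from a single end. In Galaxy, the authors aligned the reads with TopHat, computed FPKM values with Cufflinks, and deposited 1 table of them per library. The build named in the submitters' processing notes is ce10. The annotation and program versions are not given in the sources used here, nor is whether strands were separated. FPKM is scaled to transcript length and to the mapped reads of each library. Read counts were not analysed here, so the depth per gene is unknown.

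The deposited FPKM and lower bound were used, and the interval was taken as symmetric. The upper bounds, 2 further columns, were not used. The column names give no replicate number, and the series' design text gives the strain. The tables were joined on locus and start sites. In 11 rows the gene name differed between the tables, and names were taken from library 2. Locus starts were converted to count from 1.

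The 10 genes and 13 other lists (90 different genes in all) were chosen with earlier results of these data known. Genes named are those of the lists, the partner pairs, genes that overlap an endocytosis gene, and *acr-2*. *tbc-2*, JC8.16, C27H6.5 and C27H6.10 are such overlapping genes. Lengths, strands and identifiers were read from Ensembl release 115 (WBcel235), which covered 88.1% of expressed loci by name, and its coordinates were not mixed with ce10. The centring and the interval calls were tested on simulated data with known answers. The simulated intervals matched the simulated spread between libraries, so this checks the computation and not how well the Cufflinks intervals cover replicate spread. The alternatives were other limits, pseudocounts, centrings and scalings, and each library left out. Python 3.11.15 with numpy 2.4.6, pandas 2.3.3 and matplotlib 3.10.9 was used. Nothing says that the libraries came from separate cultures, so the SD may be technical in part.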

Additional observations from a re-analysis of the deposited data

How the results depend on the processing

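No paired analysis was possible because the values are of a single group, the wild type. All 10 endocytosis genes passed at each limit up to 20 FPKM, on the lower bound, on TPM and in each library alone, and 7 passed at 50 FPKM. At the limit of 20 FPKM, *unc-41* passed only just, with 20.0023 FPKM in library 1. Their median level of 133 FPKM moved to 76.6 on the TPM scale, which multiplies each library by a single factor, and was 138 after upper-quartile scaling and 116 to 150 with 1 library left out. The median centred log2 ratio of 0.32 was 0.86 when centred on the upper quartile of detected loci and reversed to -0.012 when centred on the pan-neuronal genes. With that centre, the ratio was -0.25 for *dyn-1*, -0.22 for *dpy-23* and -0.036 for *chc-1*. That of *sng-1* was 0.10 with no centring and 0.52 with the upper quartile. Pseudocounts of 0.1 and 5, or none, left the median ratio at 0.32. The number of genes with intervals apart was 9, or 6 after scaling to the median ratio. The ratios of 8 partner pairs kept their direction with other pseudocounts and in each library alone. These alternatives could hardly reverse them, since both libraries gave the same direction at levels far above the pseudocounts. Depth limits could not be set without counts.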

Other observations

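Genes of the steps after vesicle uptake were measured as well. Of 10 genes of endosomes and recycling, 8 passed 10 FPKM in both libraries, with a median of 38.7 FPKM over all 10. The highest were the small GTPase genes *rab-11.1* at 681 ± 95.8 FPKM, *rab-5* at 322 ± 22.2 FPKM, and *rab-10* at 201 ± 38.7 FPKM, and the EHD-family gene *rme-1*, which acts in recycling, at 247 ± 28.9 FPKM (SD, n = 2 for each). *rab-5*, whose product marks early endosomes, was thus near the level of *sng-1* and *unc-57*. *rabx-5*, which encodes an activator of RAB-5, was lower, at 41.1 ± 6.19 FPKM (SD, n = 2), and so was *rme-6*, the gene of another such activator. The genes under the limit in at least 1 library were *rme-6*, at 3.86 and 6.59 FPKM, and *rme-8*, at 3.86 FPKM in library 1 and 13.01 FPKM in library 2. *rme-8* differed 3.37-fold between the libraries, the retromer gene *vps-35* 2.12-fold and the Numb gene *num-1* 1.62-fold, all higher in library 2, while *rab-5*, *rab-11.1* and the sorting nexin gene *snx-1* were higher in library 1 by their intervals.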
